A study of Rattus norvegicus with 10 samples.

Results

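Pericentral and Wnt target genes of the liver were followed in 10 liver libraries from diabetic Wistar rats. Of these, 5 followed sleeve gastrectomy, which removes most of the stomach (SG), and 5 followed sham surgery (SHAM). The set was given by name as Glul, Oat, Lgr5, Axin2, Tbx3, Rnf43, Znrf3, Slc1a2 and Rhbg. Each gene was the sum of its isoforms that match a reference transcript, are contained in it, share a junction with it or overlap it on the same strand. The rule found 8 of the 9 genes, out of 20226 summed genes, and Znrf3 was not analysed here. All rats were wild type, were fed for 4 weeks on a diet with 60% of its energy from fat, and then, fasted for 16 h, were injected once with streptozotocin at 35 mg/kg, a toxin of insulin-producing cells. Diabetes was accepted at a fasting glucose over 16.7 mmol/L on day 3. Animals were then randomised into the 2 groups, and the SG livers date from 3 months after surgery. No time is given for the SHAM livers, so an effect of surgery and one of time since surgery, if the times differed, cannot be told apart. Nothing in the labels says that every library came from a separate rat, and p-values here measure the spread between libraries.

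Hepatocytes differ along the path that blood takes from the portal vein to the central vein. Endothelial cells of the central vein release Wnt ligands and R-spondins, which keep β-catenin signalling active in the hepatocytes around them. Those pericentral cells make glutamine from glutamate and the ammonia that escaped the periportal urea cycle. Glul, Oat, Slc1a2 and Rhbg serve that task, and Axin2, Lgr5, Rnf43, Znrf3 and Tbx3 are known as Wnt targets that also feed back on the pathway or act downstream of it. Much of this picture comes from work in mice.

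Promoter windows are shown so that the TCF/LEF core motif can be seen beside members named below. RefSeq (GRCr8) held 8 start sites for 6 of the members, and the 250 bases before each were searched for CTTTGA, the core to which TCF and LEF proteins bind, on both strands (reverse TCAAAG). A match was present before 3 of the 8 start sites, and before 13.9% of all 33469 start sites. The window of Axin2 (chr10:94398535-94398784, plus strand) held 2 matches. The outer start site of Glul (chr13:68519250-68519499, plus strand) held 1 and its inner start site (chr13:68575816-68576065, plus strand) 0. The inner start site of Slc1a2 (chr3:109507697-109507946, plus strand) held 2. None was found in the windows of Oat, Rhbg and Rnf43 or at the outer start site of Slc1a2, which says only that these letters are absent there. For both Glul and Slc1a2 the outer and inner starts lie farther apart than the measured isoforms span, and which start those isoforms use was not tested. A marked window is therefore not shown to be the promoter of the measured transcript. Matches are in capitals, 5′ to 3′.
Axin2: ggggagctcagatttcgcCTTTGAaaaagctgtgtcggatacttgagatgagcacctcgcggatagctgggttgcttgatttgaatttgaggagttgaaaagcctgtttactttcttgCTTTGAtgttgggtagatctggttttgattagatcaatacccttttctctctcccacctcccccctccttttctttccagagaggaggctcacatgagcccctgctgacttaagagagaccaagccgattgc
Glul, outer start: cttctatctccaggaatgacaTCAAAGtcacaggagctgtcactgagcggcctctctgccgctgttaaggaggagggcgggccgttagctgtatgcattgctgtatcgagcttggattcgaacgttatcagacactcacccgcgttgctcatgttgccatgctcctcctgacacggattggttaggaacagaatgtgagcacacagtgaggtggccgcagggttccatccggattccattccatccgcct
Glul, inner start: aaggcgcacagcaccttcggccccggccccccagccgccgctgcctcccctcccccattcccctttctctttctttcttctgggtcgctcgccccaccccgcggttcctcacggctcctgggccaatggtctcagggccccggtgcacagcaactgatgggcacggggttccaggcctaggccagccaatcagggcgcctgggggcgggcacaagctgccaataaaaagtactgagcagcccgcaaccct
Slc1a2, inner start: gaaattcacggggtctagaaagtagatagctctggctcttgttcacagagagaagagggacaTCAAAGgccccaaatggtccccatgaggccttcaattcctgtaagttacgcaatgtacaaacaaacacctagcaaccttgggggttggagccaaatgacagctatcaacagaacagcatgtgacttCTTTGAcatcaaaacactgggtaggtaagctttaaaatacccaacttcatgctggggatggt

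Each SG library held 77617460 to 92110190 estimated counts and each SHAM library 65824088 to 85520959. Of 8 hepatocyte markers listed, 7 were measured and none was at 0 in every library, and together they reached 30006 FPKM or more in each library (FPKM is a fragment count divided by transcript length and library size). Estimated counts per library ranged from 26803 to 75418 for Glul but only from 18 to 102 for Lgr5, so Lgr5 values carry the widest counting error. These libraries come from whole liver, where fewer pericentral hepatocytes and less RNA in each of them cannot be told apart.

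Levels per transcript length spanned a wide range. Over the 10 libraries Glul had a mean of 253 FPKM, Oat 33.8, Slc1a2 21.9, Tbx3 6.41, Rhbg 5.53, Rnf43 4.03, Axin2 2.94 and Lgr5 0.203. Glul stood above Oat, Slc1a2 above Tbx3, and Axin2 above Lgr5 in each of the 10 libraries. The other neighbours overlapped: Oat was above Slc1a2 in 8 libraries, Tbx3 above Rhbg in 4, Rhbg above Rnf43 in 9 and Rnf43 above Axin2 in 9.

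Glul and Oat are the enzymes of the set. Glul encodes glutamine synthetase, which joins ammonia to glutamate, and lies at chr13:71331052-71340229 on the plus strand (Rnor_6.0) with 1 reference isoform of 7 exons. Its level was 308, 106, 281, 161 and 291 FPKM in SG 1 to SG 5 and 271, 377, 253, 267 and 218 FPKM in SHAM 1 to SHAM 5. SG 2 and SG 4 lay below every SHAM library, while SG 1, SG 3 and SG 5 lay within the SHAM range. SG averaged 229 ± 90.2 FPKM, and SHAM averaged 277 ± 59.8 FPKM (SD, n = 5). The log2 fold change of SG against SHAM was -0.37 ± 0.27 (SE; edgeR's quasi-likelihood test, adjusted p = 0.991 by Benjamini-Hochberg), with a 95% interval from -0.97 to 0.24. Without SG 2 it was -0.19, and without SG 2 and SG 4, a pair chosen after the values were seen, -0.02.

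Oat encodes ornithine aminotransferase, which turns ornithine into a precursor of glutamate (chr1:204562289-204582070, minus strand, 1 reference isoform of 10 exons). SG 1 to SG 5 had 27.6, 25.4, 22.2, 31.8 and 40.4 FPKM, and SHAM 1 to SHAM 5 had 29.2, 47.8, 29.6, 25.6 and 58.2 FPKM. The groups overlapped, although SHAM 2 and SHAM 5 exceeded every SG library and SG 2 and SG 3 lay just below every SHAM library. SG 2 and SG 4, low in Glul, were not set apart in Oat, where they stood at 84.3% and 105.5% of the mean of the other SG libraries, against 36.1% and 55.0% for Glul. SG differed from SHAM by a log2 fold change of -0.47 ± 0.24 (SE, edgeR adjusted p = 0.991), and by -0.25 without SHAM 5.

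Slc1a2 and Rhbg bring in the substrates. Slc1a2 encodes the glutamate transporter GLT-1, and its level was 20.3, 5.67, 29.8, 7.10 and 12.8 FPKM in SG 1 to SG 5 and 28.8, 36.7, 38.4, 14.3 and 25.0 FPKM in SHAM 1 to SHAM 5. SG 2, SG 4 and SG 5 lay below every SHAM library, and SG 3 lay above 3 SHAM libraries. SHAM averaged 28.6 ± 9.71 FPKM and SG 15.1 ± 10.03 FPKM (SD, n = 5), the most unequal means in ratio among the 8 members. With a log2 fold change of -1.10 ± 0.45 (SE; edgeR's adjusted p = 0.991, unadjusted p = 0.0329) the gene did not pass. Its difference was -0.64 without SG 2 and SG 4.

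Slc1a2 was summed over 4 isoforms on the plus strand of chr3:92639334-92674693. The reference isoform of 882 bases supplied 0.991% of the gene's mean FPKM, and 3 assembled isoforms of 7368 to 15085 bases supplied the rest. An assembled transcript on the opposite strand (chr3:92651918-92674693, 8773 bases), left out of the sum, reached 16.0, 13.3 and 11.9 FPKM in SHAM 1, SHAM 3 and SHAM 5 and at most 2.53 FPKM in the other 7 libraries. Strand-specific counting is not stated in the sources used here, so reads of the gene and of this partner cannot be told apart where they overlap. With the reference isoform alone, unfiltered, the log2 fold change of Slc1a2 was 0.25, opposite in sign.

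Rhbg encodes an ammonia transporter of the Rh family (chr2:187610087-187622373, minus strand, 3 reference isoforms). SG 1 to SG 5 had 6.21, 0.766, 5.27, 4.04 and 5.03 FPKM, and SHAM 1 to SHAM 5 had 5.44, 7.91, 6.97, 8.21 and 5.48 FPKM. SG 2 stood at 13.9% of the mean of SG 1, SG 3 and SG 5, with 121 estimated reads against 673 or more in every other library. SG 1 lay inside the SHAM range, whereas the other 4 SG libraries lay below it. On the log2 scale SG minus SHAM was -0.81 ± 0.43 (SE, edgeR adjusted p = 0.991, unadjusted p = 0.0873). Without SG 2 it was -0.53 (edgeR adjusted p = 0.993, unadjusted p = 0.0156). Without SHAM 4 it was -0.71 (edgeR adjusted p = 0.952, unadjusted p = 0.161).

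Lgr5 and Rnf43 act at the cell surface. Lgr5 is a receptor for R-spondins and in mice marks pericentral hepatocytes (chr7:58448277-58587787, minus strand, 18 exons). Its level was 0.161, 0.0772, 0.329, 0.0546 and 0.211 FPKM in SG 1 to SG 5 and 0.198, 0.284, 0.301, 0.241 and 0.176 FPKM in SHAM 1 to SHAM 5. Again SG 2 and SG 4 were the lowest 2 of the 10 libraries, with 25 and 18 estimated reads, while SG 3 was the highest. Lgr5 was below the filter of a mean of 1 FPKM, and in the edgeR fit with no filter its log2 fold change was -0.63 ± 0.45 (SE, adjusted p = 0.836). Without SG 2 and SG 4 it was -0.14, and without SG 3 it was -1.06. In limma it was -0.16 on log2(FPKM + 0.5) and -0.44 on log2(FPKM + 0.1), a scale that shrinks differences of a gene this low.

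Rnf43 encodes a ubiquitin ligase that removes Frizzled receptors from the membrane (chr10:74957315-75030433, plus strand). SG 1 to SG 5 had 3.65, 2.95, 5.01, 3.02 and 4.76 FPKM, and SHAM 1 to SHAM 5 had 3.75, 4.17, 3.60, 4.71 and 4.69 FPKM. The 2 lowest libraries were SG 2 and SG 4, but their distance from the rest was small, at 65.9% and 67.5% of the mean of the other SG libraries. An assembled isoform of 4890 bases supplied 98.3% of the mean FPKM of Rnf43. Of the 8 members it had the smallest log2 fold change, -0.20 ± 0.17 (SE, edgeR adjusted p = 0.991), and the narrowest 95% interval, from -0.58 to 0.17. Without SG 2 and SG 4 the value was -0.01, and in limma on log2(FPKM + 0.5) it was -0.12.

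Axin2 and Tbx3 lie inside the cell. Axin2 encodes a scaffold of the complex that degrades β-catenin and is a feedback target of the pathway (chr10:97212432-97239642, plus strand, 10 exons). Its level was 2.24, 2.40, 2.60, 2.48 and 3.42 FPKM in SG 1 to SG 5 and 1.58, 2.82, 2.78, 4.05 and 4.99 FPKM in SHAM 1 to SHAM 5. SHAM held both the lowest library, SHAM 1, and the highest, SHAM 5, and the SD was 1.31 FPKM in SHAM against 0.464 FPKM in SG. SG minus SHAM stood at -0.42 ± 0.28 on the log2 scale (SE, edgeR adjusted p = 0.991), at -0.20 without SHAM 5, and at -0.19 in limma on log2(FPKM + 0.5).

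Tbx3 encodes a T-box transcription factor (chr12:42480560-42494427, minus strand). SG 1 to SG 5 had 5.48, 5.47, 4.33, 5.22 and 11.1 FPKM, and SHAM 1 to SHAM 5 had 4.67, 3.43, 6.08, 7.63 and 10.7 FPKM. The groups overlapped throughout, with SG 5 and SHAM 5 highest. Tbx3 had a log2 fold change of -0.36 ± 0.33 (SE, edgeR adjusted p = 0.991), of -0.12 without SHAM 5 and of -0.58 without SG 5. On log2(FPKM + 0.5) with limma it was -0.02 (adjusted p = 0.995). Its value depended on which isoforms were counted: an assembled isoform of 5171 bases averaged 3.43 ± 1.34 FPKM over SHAM and 1.59 ± 0.259 FPKM over SG (SD, n = 5), while 1 of the 2 reference isoforms, of 2232 bases, ranged from 0 to 5.04 FPKM within SG. With reference isoforms alone the log2 fold change of Tbx3 was 0.20.

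**Figure D1:**
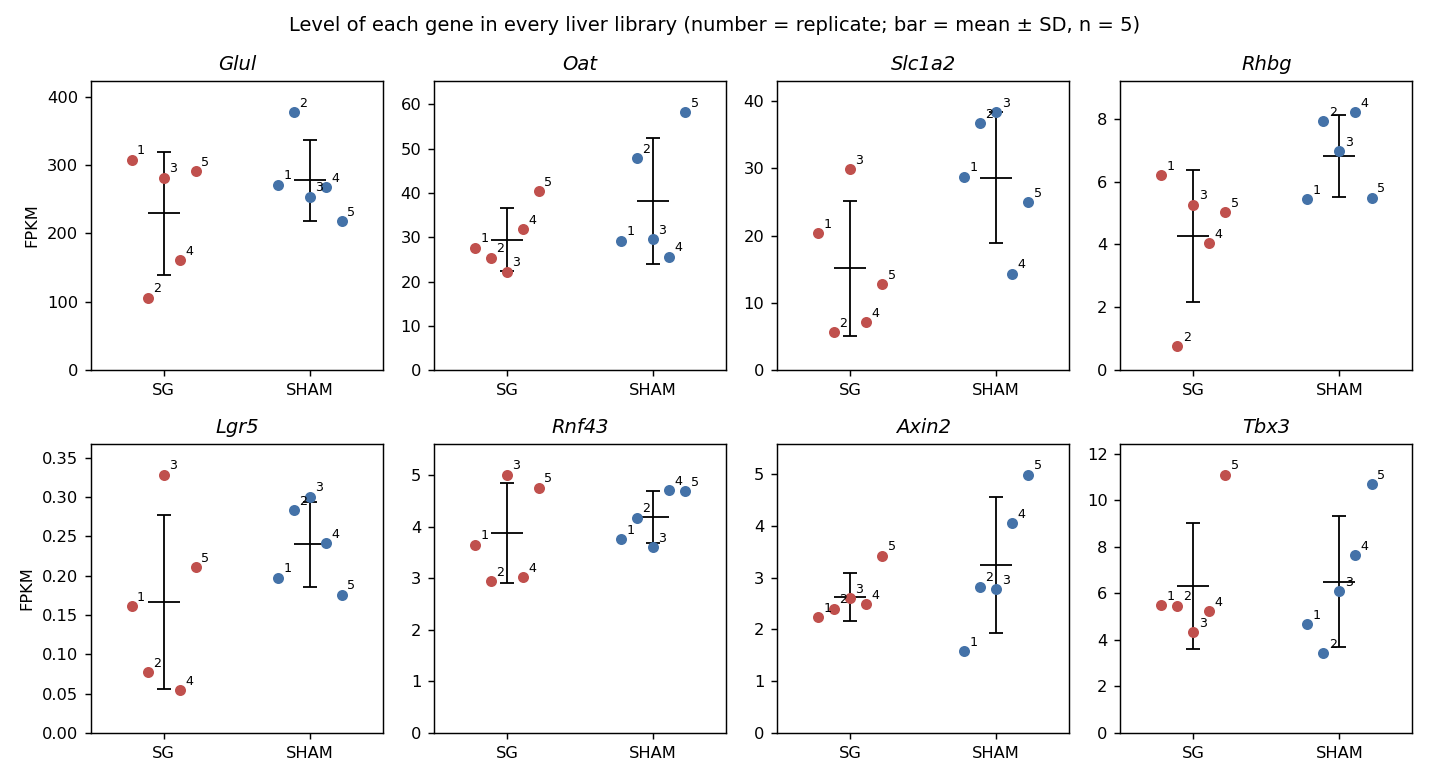
Level of 8 pericentral and Wnt target genes in FPKM, on linear axes from 0, for every SG (red) and SHAM (blue) library, with replicate numbers beside the points and bars for the mean ± SD (n = 5). SG 2 and SG 4 are the lowest points for Glul, Slc1a2, Rhbg, Lgr5 and Rnf43, and not for Oat, Axin2 or Tbx3.

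The comparison of the operations was then read over the whole set. None of the 7 tested members passed in edgeR, where 0% of 11139 genes passed, and Lgr5 did not pass without the filter, where 0% of 20021 genes did. Before adjustment, 1 member, Slc1a2, had a p under 0.05, against 4.53% of tested genes in either direction (505) and 1.85% lower in SG. Limma on log2(FPKM + 0.5) passed 0 genes (700 before adjustment, 6.28%). DESeq2 passed 18 genes, 0.162% (626 before adjustment, 5.62%), with no member among them. Of the 7 members, 7 were below 0, around a median of -0.42, where 52.6% of tested genes were below 0 around a median of -0.01. Lgr5 was below 0 as well in the fit with no filter, as were 49.7% of genes there. A log2 fold change at or under -0.5 was found for Slc1a2 and Rhbg, and for 3.51% of tested genes. No member had groups that did not overlap, against 1.34% of tested genes. The 95% intervals of Glul, Oat, Rhbg, Axin2 and Tbx3 included 0 and reached down to between -1.75 and -0.97, so differences of that size were not resolved with 5 libraries a group.

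**Figure D2:**
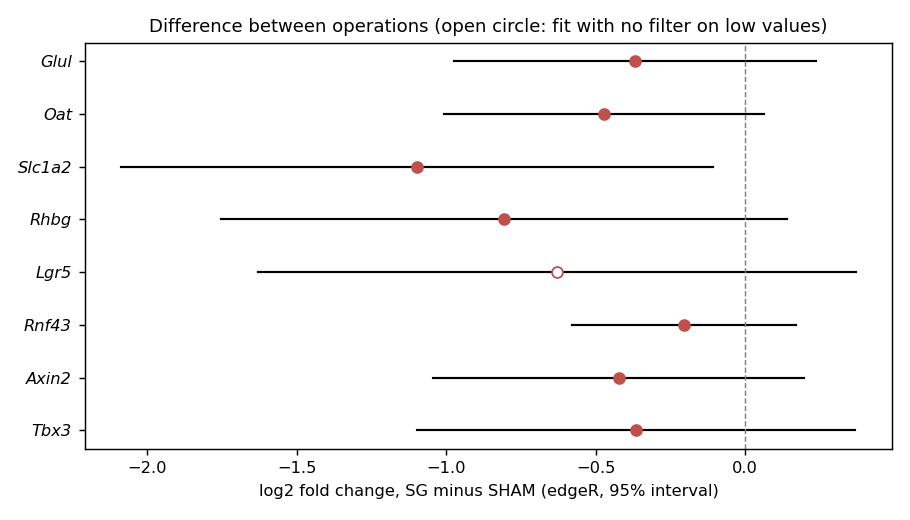
Log2 fold change of SG minus SHAM from edgeR for each member (point; open for Lgr5, from the fit with no filter) with its 95% interval (line); the dashed line marks 0. Each point lies left of 0, and the interval of Slc1a2, from -2.09 to -0.11, is the only one of the 8 that does not include it.

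Libraries differed widely in nearly the whole set. The SD of log2 CPM (counts scaled to library size) over the 10 libraries was 1.02 for Rhbg, 1.01 for Slc1a2, 0.81 for Lgr5, 0.58 for Tbx3, 0.52 for Glul, 0.50 for Axin2, 0.45 for Oat and 0.29 for Rnf43, against a median of 0.26 over tested genes. Among the 7 tested members, the share of tested genes with a smaller SD ran from 55.9% for Rnf43 and 77.5% for Oat to 95.3% for Rhbg. On this scale SG 2 stood, relative to the median library, at -2.94 for Rhbg, -2.10 for Slc1a2, -1.38 for Glul and -1.27 for Lgr5. SG 4 stood at -1.70 for Slc1a2, -1.68 for Lgr5, -0.73 for Glul and -0.44 for Rhbg. SG 2 and SG 4 were the lowest 2 libraries for 4 of the 7 tested members (57.1%), and for 310 of all 11139 tested genes (2.78%). The choice of these libraries followed from their values, so these shares are descriptions.

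**Figure D3:**
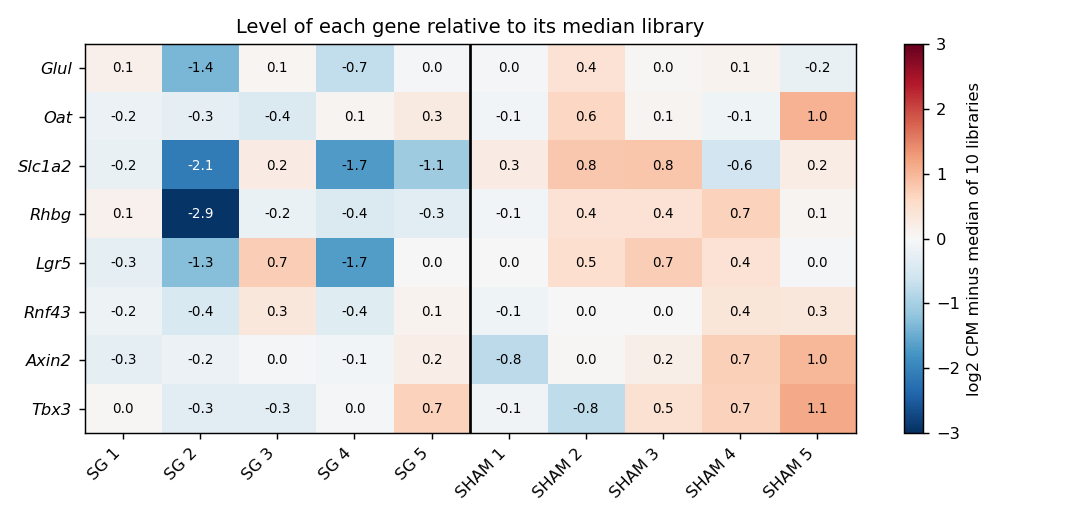
Log2 CPM of each member in each library minus its median over the 10 libraries; blue is lower and red higher, and the vertical line parts SG from SHAM. The deepest blue cells are Rhbg and Slc1a2 in SG 2, followed by Slc1a2 and Lgr5 in SG 4, while Oat, Axin2 and Tbx3 are highest in SHAM 5.

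SG 2 also stood apart in summed markers of some other liver cells. The 7 markers of Kupffer cells and macrophages, all tested and none of them passing, summed to 425 FPKM in SG 2, to 186 to 213 FPKM in the other SG libraries and to 161 to 361 FPKM in SHAM. The 8 markers of stellate cells and fibroblasts summed to 96.0 FPKM in SG 2, against 34.7 to 48.3 FPKM in the other SG libraries and 26.1 to 53.3 FPKM in SHAM. No marker in these lists was at 0 in every library. B and plasma cell markers (3 of 4 measured) summed to 64.0 FPKM in SG 2 and to 5.58 to 29.98 FPKM elsewhere. Nearly all of this was a single gene, Jchain, at 63.4 FPKM in SG 2, and Ms4a1 and Cd79b stayed below the filter. Endothelial markers (7 of 8 measured) summed to 93.1 FPKM in SG 2 and to 49.5 to 85.7 FPKM elsewhere. SG 2 was not set apart in their mean centred log2 CPM, at 0.41 against 0.47 in SHAM 5. Lyve1 and Cdh5 were lower in SG 2, at 12.3 and 7.42 FPKM, than in SHAM 5, at 23.8 and 10.3 FPKM. Thbd and Kit were also lower in SG 2 than in SHAM 5. Stab2 and Clec4g were higher in SG 2, at 15.8 and 27.2 FPKM, than in SHAM 5, at 10.9 and 10.1 FPKM. Kdr was slightly higher in SG 2 as well, and Stab2 and Kdr had their highest level of all libraries there. The part of these cells in the low pericentral values of SG 2 was not tested. In SG 4 the macrophage and stellate sums were 187 and 37.4 FPKM, within the range of the other SG libraries. Its Glul, Slc1a2 and Lgr5 were low, and the part of these cells there was not tested either. The summed hepatocyte markers were 33936 FPKM in SG 2, the lowest of the SG libraries, and 42399 FPKM in SG 4. They ranged from 36678.5 to 46722 FPKM in SG 1, SG 3 and SG 5 and from 30006 to 43073 FPKM in SHAM. Cholangiocyte markers (5 measured) summed to at most 8.06 FPKM in any library, and red blood cell markers (3 of 4 measured) to 242 FPKM in SG 2 and 130.7 to 1198 FPKM elsewhere. None of the 4 T and NK cell markers reached the filter.

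Between the operations, no cell marker passed in edgeR, but several lists leaned to 1 side. Red blood cell markers were below 0 in 3 of 3, at log2 fold changes of -1.11 ± 0.53 for Hbb, -0.98 ± 0.51 for Hba-a2 and -1.18 ± 0.65 for Alas2 (SE), and they summed to 244 to 1198 FPKM in SHAM and 130.7 to 487 FPKM in SG. Stellate and fibroblast markers were above 0 in 7 of 8, with a median of 0.43 and Acta2, a contractile actin, at 0.91 ± 0.38. They summed to 96.0 FPKM in SG 2, while the other SG libraries overlapped SHAM in that sum. Col3a1, the 1 marker below 0, had 40.8 FPKM of it, so the sum does not measure this lean. The part of SG 2 in the lean was not tested. Acta2 had 4.67 FPKM in SG 2, 1.29 to 1.83 FPKM in the other SG libraries and 0.624 to 1.35 FPKM in SHAM. Its level in SG 1, SG 3 and SG 5 was also above every SHAM library. Jchain, the joining chain of antibodies and the 1 tested marker of B and plasma cells, stood at 1.119 ± 0.40. Macrophage markers were below 0 in 4 of 7 (median -0.19), endothelial markers in 3 of 7 (median 0.03), hepatocyte markers in 5 of 7 (median -0.05), and the 1 tested cholangiocyte marker, Epcam, stood at -0.00297. Over all tested genes the median was -0.01. The part of these cells in the members' values was not tested.

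Members varied together to different degrees. Over the 10 libraries Glul and Rhbg had a Pearson r of 0.90 (permutation p = 0.00247, adjusted p = 0.0301) and a Spearman rho of 0.76 (permutation p = 0.0148, adjusted p = 0.19) on log2 CPM. Glul and Slc1a2 had r = 0.82 (permutation adjusted p = 0.0301) and rho = 0.59 (adjusted p = 0.269), and Glul and Lgr5 r = 0.82 (permutation adjusted p = 0.0471) and rho = 0.61 (adjusted p = 0.265). In all, 28 pairs of members were compared, 6 of them passed by Pearson's r and 0 by Spearman's rho after adjustment, with two-sided tests. The other 3 that passed were Slc1a2 with Rhbg (r = 0.73), Slc1a2 with Lgr5 (r = 0.84) and Lgr5 with Rnf43 (r = 0.77). On log2(FPKM + 0.5) the pairs Glul with Rhbg and Slc1a2 with Lgr5 passed (permutation adjusted p = 0.0477 for each). The other 4 did not, at a permutation adjusted p of 0.0542 for Glul with Slc1a2, Glul with Lgr5 and Slc1a2 with Rhbg, and of 0.0817 for Lgr5 with Rnf43. On log2 CPM, r with Glul was 0.63 for Rnf43, 0.22 for Oat, 0.12 for Axin2 and 0.07 for Tbx3, none of which passed.

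These relations were weaker without SG 2 and SG 4, the libraries farthest from the median in Glul. Leaving out the extremes of a measure narrows its range, which can lower r by itself. Without them r fell to 0.46 for Glul and Rhbg, 0.32 for Glul and Slc1a2, 0.32 for Glul and Lgr5, 0.34 for Slc1a2 and Rhbg, 0.50 for Slc1a2 and Lgr5 and 0.36 for Lgr5 and Rnf43. Among the pairs that had not passed, r without them was -0.79 for Glul and Tbx3, -0.31 for Glul and Rnf43, -0.29 for Glul and Axin2 and -0.14 for Glul and Oat. Axin2 and Tbx3 had r = 0.70 (permutation p = 0.0226, adjusted p = 0.0827) and rho = 0.65 (permutation p = 0.0491, adjusted p = 0.249), which did not pass. Their r was 0.63 without SHAM 1 and SHAM 5, the libraries farthest from the median of Axin2. With group means removed, r was 0.87 for Glul and Rhbg, 0.78 for Glul and Slc1a2 and 0.68 for Axin2 and Tbx3.

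**Figure D4:**
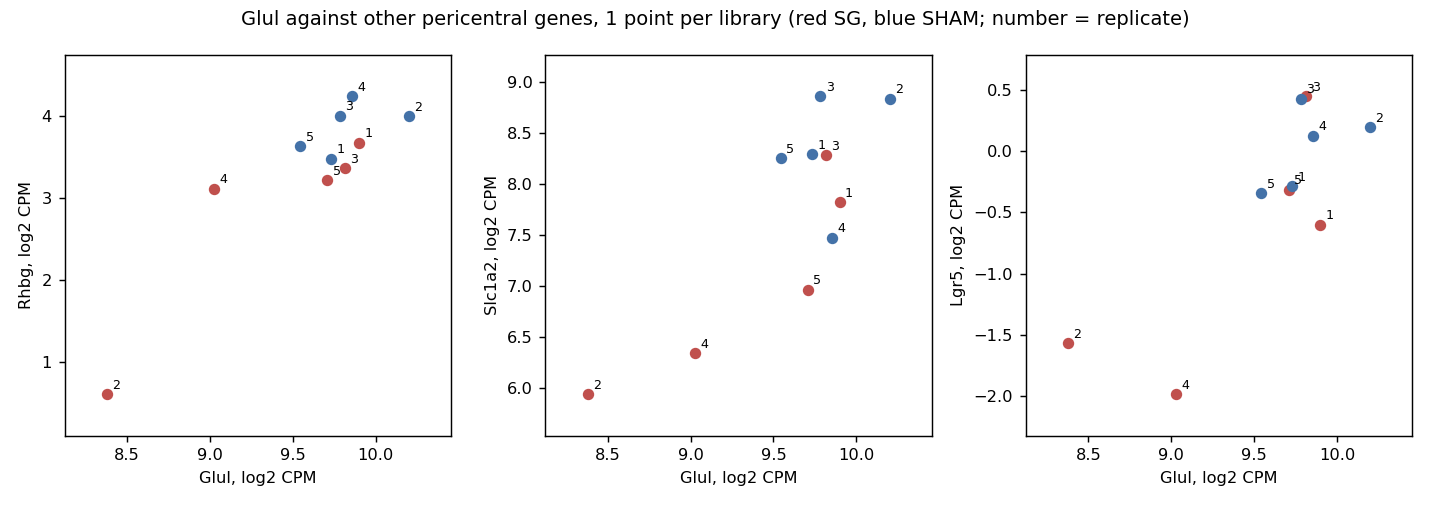
Log2 CPM of Glul (horizontal) against Rhbg, Slc1a2 and Lgr5 (vertical), 1 point per library, SG in red and SHAM in blue with replicate numbers. SG 2 lies at the lower left of each panel. SG 4 lies to the left in each and is low for Slc1a2 and Lgr5. For Rhbg it stands at 3.11, close to SG 5 at 3.22.

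The genes most like Glul were sought among 11132 tested genes outside the set. By Spearman's rho over the 10 libraries they were Tubgcp2, a subunit of the γ-tubulin ring complex (0.95), Spsb4, a SOCS-box protein (0.94), Ttc38 (0.92), AABR07060293 (0.92) and Oard1, an ADP-ribose hydrolase (0.92). Ttc38 had 4.13 FPKM in SG 2, 5.79 FPKM in SG 4 and 6.56 to 10.5 FPKM elsewhere. Farthest from Glul were Dlc1 (-0.98), AABR07012635 (-0.95) and Chsy1, a chondroitin sulfate synthase (-0.95). Dlc1 had its highest levels in SG 2, at 23.1 FPKM, and SG 4, at 19.6 FPKM, and 9.22 to 16.7 FPKM in the other libraries. These are the extremes of a search over all genes and carry no test.

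Other pericentral genes, taken from a list of 20, were compared next. Among the 16 tested, 0 passed in either direction, 14 were below 0 and 2 above, and the median log2 fold change was -0.29, against -0.01 over all tested genes. The 2 with the smallest p were Notum, a secreted enzyme that inactivates Wnt ligands (-0.52 ± 0.21 SE), and Ahr, the aryl hydrocarbon receptor (-0.61 ± 0.27). Neither passed (edgeR adjusted p = 0.991). On log2 CPM, SG 2 was the lowest library for 9 of the 16 genes (56.2%) and for 13.4% of all tested genes, and SG 2 and SG 4 were the lowest 2 for 3 of the 16. Among these 9, named after their values were seen, were the cytochrome P450 genes Cyp2e1, at 895 FPKM in SG 2 and 2101 to 3542 FPKM elsewhere, and Cyp7a1, which starts the conversion of cholesterol to bile acids, at 2.55 FPKM in SG 2 and 26.9 to 145 FPKM elsewhere. Cyp1a2 was not low there, with 474 FPKM in SG 2 and 222 to 477 FPKM elsewhere. SG 4 was lowest for 1 of the 16 genes, Notum, at 16.1 FPKM.

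Periportal genes, from the opposite end of the lobule, had SG 2 as their lowest library in 4 of 18 cases, and SG 2 and SG 4 as their lowest 2 in 0. Of the 18 tested, 0 passed, 12 were negative and 6 positive, and the median log2 fold change was -0.08. Smallest in p were the serine dehydratase gene Sds (-1.86 ± 0.88 SE) and Hsd17b13, a lipid droplet protein (0.53 ± 0.27), neither passing (edgeR adjusted p = 0.991). Sds rested on SHAM 2, at 92.7 FPKM against 3.41 to 11.3 FPKM in the other SHAM libraries. The mean centred log2 CPM of the periportal list was -0.13 in SG 2 and 0.01 in SG 4, where that of the other pericentral genes was -0.81 and -0.11. In SHAM 2, the library with the most Glul, the periportal score was 0.65, the highest of the 10.

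**Figure D5:**
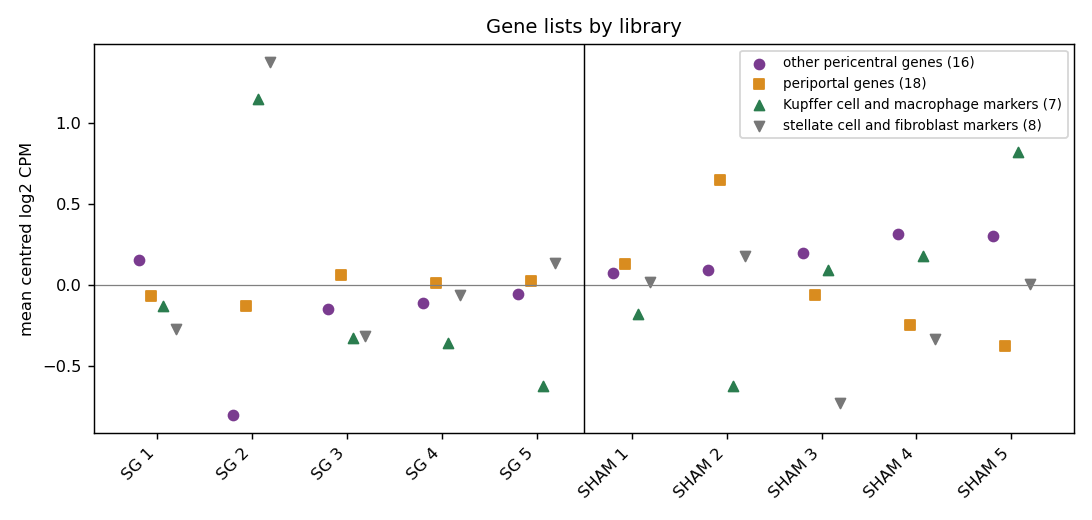
Mean centred log2 CPM of 4 gene lists in each library: other pericentral genes (16), periportal genes (18), Kupffer cell and macrophage markers (7) and stellate cell and fibroblast markers (8); the vertical line parts SG from SHAM. In SG 2 the pericentral point lies at -0.81 while the macrophage and stellate points lie at 1.15 and 1.38.

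The Wnt pathway upstream of these targets showed no gene past the test. Of 13 genes for ligands, R-spondins and their secretion, 2 were tested: Wls, which carries Wnt proteins to the membrane (0.32 ± 0.25 SE), and Rspo3, the R-spondin of the central vein (0.19 ± 0.21). Wnt2 and Wnt9b, the ligands of liver endothelium, stayed below the filter, at 0.267 to 1.195 FPKM for Wnt2 and 0.165 to 0.646 FPKM for Wnt9b. Rspo3 was not low in SG 2 and SG 4: it stood at 1.41 and 1.10 FPKM there, within the 0.867 to 1.78 FPKM of the other libraries. Of 11 receptor genes tested, 4 were negative and 7 positive with a median of 0.03. Fzd8 (-0.59 ± 0.28) and Fzd1 (-0.30 ± 0.15) had the smallest p of the receptors. Of the 13 ligand and receptor genes tested, 0 passed (edgeR, adjusted p = 0.991 for those named).

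Inside the cell, 8 genes listed for the β-catenin destruction complex were tested, 4 negative and 4 positive, with a median of -0.0049. That list also held Ctnnb1, the β-catenin gene itself, and the regulator Tnks. The tankyrase gene Tnks, whose product marks axin for degradation, stood at -0.16 ± 0.06 (log2 fold change, SE), and Apc stood at 0.17 ± 0.12. For 6 listed nuclear factors, with Hnf4a, also used as a hepatocyte marker, among them, the median was 0.08. Tcf7l2, a TCF partner of β-catenin, stood at 0.29 ± 0.17 and Pygo2 at 0.08 ± 0.09. Of 3 tested inhibitors, Apcdd1, a membrane antagonist of Wnt, stood at -1.22 ± 0.66 and the corepressor gene Tle2 at 0.21 ± 0.20. Again 0 genes passed in these lists (edgeR adjusted p = 0.991 for each gene named).

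Genes of ammonia, glutamine and glutamate handling outside the set were compared last. Of 10 tested, 0 passed, 9 were negative and 1 positive, and the median log2 fold change was -0.11 (-0.01 over all tested genes). Slc7a5, a carrier of large neutral amino acids, stood at -1.09 ± 0.60 (SE), with 4.25 FPKM in SHAM 4 and 0.439 to 1.49 FPKM in the other 9 libraries, and Slc38a2, a carrier of glutamine and alanine, at -0.55 ± 0.31. Slc38a2 had 35.6 FPKM in SG 2, 13.98 to 20.5 FPKM in the other SG libraries and 24.3 to 48.6 FPKM in SHAM, so SG 2 lay within the SHAM range. Gls2, the periportal glutaminase, had 54.8 to 69.6 FPKM in SG and 42.8 to 130 FPKM in SHAM. Neither carrier passed (edgeR adjusted p = 0.991).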

How the data were processed

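Liver RNA depleted of ribosomal RNA was sequenced in 5 SG and 5 SHAM libraries, per the labels' protocols. According to the submitters' processing notes the build was Rnor_6.0 and the tools were HISAT2 2.0.4, StringTie 1.3.4, cutadapt 1.9 and FastQC 0.10.1; their order is not given there. A single table covers 51430 isoforms, for which the authors deposited FPKM and whole-number estimated counts per library, per the file headers. Within a library the deposited estimated counts were proportional to FPKM times length, so reads shared by isoforms were divided by estimate.

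FPKM and estimated counts were summed per gene name over isoforms with class code =, c, j or o, and 11139 genes with a mean of at least 1 FPKM were tested. The test was edgeR 4.0.16 in R 4.3.3 (quasi-likelihood, TMM scaling, two-sided, Benjamini-Hochberg adjustment, threshold 0.05), tried on simulated data first. Alternatives were limma 3.58.1, DESeq2 1.42.0, other scalings, filters, pseudocounts and isoform choices, libraries left out and a replicate block. Correlations used log2 CPM with a prior count of 2 and 100000 permutations. Genes were named by rule: the members, the 5 tested genes most and 3 least like Glul in Spearman's rho, and the 2 of each comparison list with the smallest p; others were chosen after their values were seen. Members and lists were chosen with earlier results of these data known.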

Additional observations from a re-analysis of the deposited data

Results flagged for a closer look

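Tbx3 in SG 5 stood at 11.1 FPKM, far above the 4.33 to 5.48 FPKM of the other SG libraries, with a gap to the nearest of them that took up 0.829 of the range of the group (limit 0.71 for 5 libraries). It was the 1 outlying library found among the 16 combinations of member and group searched. By chance alone about 1 in 20 combinations is flagged, so 1 flag in 16 is near what chance gives.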

How the results depend on the processing

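No member passed under any alternative run (lowest adjusted p 0.562, Slc1a2 in DESeq2), and log2 fold changes stayed below 0 apart from 2 values: with reference isoforms alone Tbx3 stood at 0.2031 and Slc1a2 at 0.2504. Under that choice Slc1a2 and Rnf43 had no value above the filter, so Slc1a2 and Rnf43 (-1.33) were read with no filter, an alternative chosen after seeing the data, as was leaving out SG 2 and SG 4. With 1 library left out, the value ranged from -0.50 to -0.19 for Glul, -0.58 to -0.25 for Oat, -1.48 to -0.89 for Slc1a2 (p from 0.00588 to 0.0733 before adjustment in edgeR), -0.9994 to -0.53 for Rhbg, -1.06 to -0.41 for Lgr5, -0.33 to -0.12 for Rnf43, -0.61 to -0.20 for Axin2 and -0.58 to -0.12 for Tbx3. Over all genes 0 passed in edgeR, 18 in DESeq2, 0 to 1 with 1 library left out (1 without SG 5 and 1 without SHAM 1) and 1 without SG 2 and SHAM 5. On log2(FPKM + 0.5), 2 pairs of members passed by Pearson's r, against 6 on log2 CPM. On that scale limma moved Tbx3 to -0.02, Lgr5 to -0.16, Axin2 to -0.19 and Rnf43 to -0.12. The median over all tested genes moved as well, from -0.01 in edgeR to 0.08 in that limma run. The cause of these changes was not tested. With the replicate number as a block, edgeR passed 0 genes (456 before adjustment), and the values were -1.25 for Slc1a2, -0.998 for Rhbg, -0.84 for Lgr5, -0.44 for Glul, -0.42 for Oat, -0.31 for Axin2, -0.28 for Tbx3 and -0.22 for Rnf43. Same-numbered libraries correlated at -0.219 to 0.141, and 1 of 10 libraries correlated best with its own number, so no pairing by number was seen. A pairing that left little trace in expression would look the same and is not excluded. Lgr5 rests on 18 to 102 estimated reads a library, the fewest of the members.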
